A study of Rattus norvegicus with 28 samples.

Results

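In the lumbar dorsal root ganglia (DRGs) of rats with an inflamed hind paw, 316 of the 56810 accessible chromatin regions of the data set lost accessibility by the criterion used here. These closed regions are those with an unadjusted p below 0.001 by limma between the CFA and naïve libraries and a lower mean after CFA, so the members were chosen by the CFA and naïve values themselves. The same criterion gave 321 regions with a higher mean, here called opened. Regions called lower made up 0.556% of all regions tested and regions called higher 0.565%. The libraries came from male Sprague-Dawley rats 12 weeks old, and each was made from the ipsilateral L4 to L6 DRGs of 1 rat. There were 3 libraries from naïve rats, 6 taken 48 h after complete Freund's adjuvant (CFA) was injected into the hind paw, and 6 taken 14 days after the sciatic nerve was loosely tied (chronic constriction injury, CCI). Rats that did not develop mechanical hypersensitivity after CFA or CCI had been left out by the study, so both pain groups hold responding animals only.

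ATAC-seq, the method behind these values, uses a transposase to cut and tag DNA that is free of nucleosomes, so a region with high coverage is one that the transposase can reach. Such regions are mostly promoters and enhancers, the stretches of DNA to which transcription factors bind. A DRG holds the cell bodies of sensory neurons, including the nociceptors that report tissue damage, together with satellite glia, Schwann cells, fibroblasts, vessel cells and immune cells. Since whole ganglia were used, fewer cells with an open region and less accessibility per cell cannot be told apart. Values are the log2 normalized coverage of a region, and a difference of -1 means that coverage was halved on that scale. The study states that each sample was sampled down to a common number of insertion sites. The average per sample that it gives is below that number, so an equal depth is not certain. The normalized values do not show the reads behind a single region. The CFA and CCI libraries lie in tables that were normalized separately, and both tables hold the same 3 naïve libraries.

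Of the 316 closed regions, 10 also had a p below 0.001 and a lower mean after CCI, and only for these does the study give the nearest gene. The region at Wdr60 (now Dync2i1), a gene for an intermediate chain of the dynein that carries cargo within cilia, lies at chr6:144123384-144123972 in rn6. The region at Msx2, which encodes a homeobox transcription factor, lies at chr17:11683581-11684211. The study's annotation puts both at the start of the gene. The sequences below show what lies at these starts. For the Wdr60 region they are the primers with which the study cloned the whole region into a reporter plasmid, with the bases that follow the restriction site (MluI in the left and BglII in the right primer) in capitals. For both genes they are the RefSeq promoter windows in GRCr8, from 250 bases before to 50 bases after the start, on the strand of the gene, with motif matches in capitals.

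Wdr60 region, left primer: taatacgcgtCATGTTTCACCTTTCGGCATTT
Wdr60 region, right primer: gcgcagatctGAATTAAAGGTGTGCGCTGC
Wdr60 promoter: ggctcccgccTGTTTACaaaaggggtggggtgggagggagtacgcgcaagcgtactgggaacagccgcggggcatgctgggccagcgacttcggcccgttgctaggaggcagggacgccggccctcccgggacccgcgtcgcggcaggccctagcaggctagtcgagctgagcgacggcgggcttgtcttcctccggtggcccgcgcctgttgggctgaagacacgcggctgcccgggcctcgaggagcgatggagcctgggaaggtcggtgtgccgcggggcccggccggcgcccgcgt
Msx2 promoter: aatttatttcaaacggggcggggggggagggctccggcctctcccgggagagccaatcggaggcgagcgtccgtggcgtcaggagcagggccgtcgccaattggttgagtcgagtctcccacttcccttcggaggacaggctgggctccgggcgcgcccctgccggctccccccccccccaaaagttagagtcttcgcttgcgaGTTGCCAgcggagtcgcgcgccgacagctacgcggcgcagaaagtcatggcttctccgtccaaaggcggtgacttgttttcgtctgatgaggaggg

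The capitals in the Wdr60 window mark TGTTTAC, the motif of FOXO factors, and those in the Msx2 window mark GTTGCCA, the motif of RFX factors, which act in ciliated cells. Among 33469 promoter windows of the same length, 3.78% held the first and 4.56% the second on either strand. The Wdr60 window has 73.0% G or C and 36 CG dinucleotides and the Msx2 window 65.3% and 30, compared with medians of 51.7% and 7 over all windows. Windows were found for 6 of the 10 genes (Wdr60, Msx2, Cxxc4, Agtpbp1, Grik4 and Mpped2). The Mpped2 window held CCAGCAG, a core of the CTCF motif. A CTCF core, searched as CCACCAG or CCAGCAG as well as CCACTAG or else CCAGTAG, was in 20.2% of all windows. None of the 6 windows held TGANTCA (AP-1), GACGTCA (CRE), TTGGCA (NF1), ACAATGG or ATTGTTN (SOX), GGAATG (TEAD), CAGCTG (E-box) or TTACGTA (HLF), which were found in 0.505% (HLF) to 15.1% (E-box) of all windows. These windows are gene starts in another build, not the closed regions themselves, whose sequences were not analysed here.

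The closing at these 10 regions is given first by library. At the Wdr60 region the naïve libraries had log2 values of 7.92, 7.83 and 7.56, and the CFA libraries ranged from 6.96 to 7.16 with a median of 7.04. The CFA libraries thus lay close together and all below the naïve libraries, and the log2 fold change was -0.71 (SE 0.12). In the CCI table the naïve values were 7.41, 7.33 and 7.10 and the CCI values ranged from 6.05 to 6.88 with a median of 6.22, for a change of -0.95 (SE 0.20). At the Msx2 region the naïve values were 6.67, 6.15 and 6.24, and the CFA values ranged from 4.96 to 5.60 with a median of 5.50, a change of -0.99 (SE 0.18). Its CCI values ranged from 4.73 to 5.27 with a median of 4.94, against 6.31, 5.85 and 5.93 in the naïve libraries, a change of -1.06 (SE 0.18). Here too no library of a pain model reached the lowest naïve library.

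The region at the start of Dlg3, a scaffold protein of excitatory synapses, lies at chrX:70596272-70597179 and was intermediate in level. Its naïve values were 6.01, 6.17 and 5.91 and its CFA values 4.99 to 5.60 with a median of 5.16, so that it fell by 0.80 (SE 0.15) on the log2 scale after CFA. Its change after CCI was -0.95 (SE 0.18). Cxxc4, which encodes an inhibitor of Wnt signalling, and Nr3c2, which encodes the mineralocorticoid receptor, had closed regions near the gene start at chr2:239413846-239414572 and chr19:34760039-34760205. The Cxxc4 region changed by -0.68 (SE 0.14) after CFA and -0.75 (SE 0.15) after CCI. The Nr3c2 region changed by -0.64 (SE 0.13) and -0.94 (SE 0.21), and CCI replicate 1, at 5.47, stood above the other CCI libraries, which reached 4.99 at most.

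The remaining 5 regions lie farther from their nearest gene. That of Tshz3, a zinc finger homeobox factor, at chr1:92513274-92513499 was the lowest in level of the 10, with naïve values of 4.43, 4.18 and 4.44 and CFA values of 3.01 to 3.72 with a median of 3.26. It had the largest CFA change of the 10, -1.01 (SE 0.17), and after CCI its values ranged from 2.82 to 3.72 against a naïve mean of 4.17 ± 0.15 (SD, n = 3). The region of Grik4, a kainate-type glutamate receptor subunit, at chr8:47237180-47237538 changed by -0.97 (SE 0.21) after CFA, with a median of 4.71 against 5.48, 5.35 and 5.76 in the naïve libraries. Its CCI libraries lay within a narrow range of 4.18 to 4.37, a change of -0.99 (SE 0.15). The region of Agtpbp1, an enzyme that removes glutamates from tubulin, at chr17:5634167-5634689 changed by -0.88 (SE 0.19) and -0.77 (SE 0.17), and CFA a, at 4.93, came within 0.25 of the lowest naïve library. The region of Rbis, a factor of ribosome biogenesis, at chr2:88365560-88366693 was the highest in level, with naïve values of 8.21, 8.15 and 8.03, and changed by -0.61 (SE 0.12) and -0.77 (SE 0.17). The region of Mpped2, a metallophosphoesterase gene, at chr3:97720973-97722482 was the widest of the 10 with 1509 bp and changed by -0.70 (SE 0.15) and -0.71 (SE 0.16). By limma with Benjamini-Hochberg adjustment over all regions, none of the 10 had an adjusted p below 0.05 in either comparison. The CCI adjusted p of these 10 was between 0.0761 and 0.107.

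**Figure D1:**
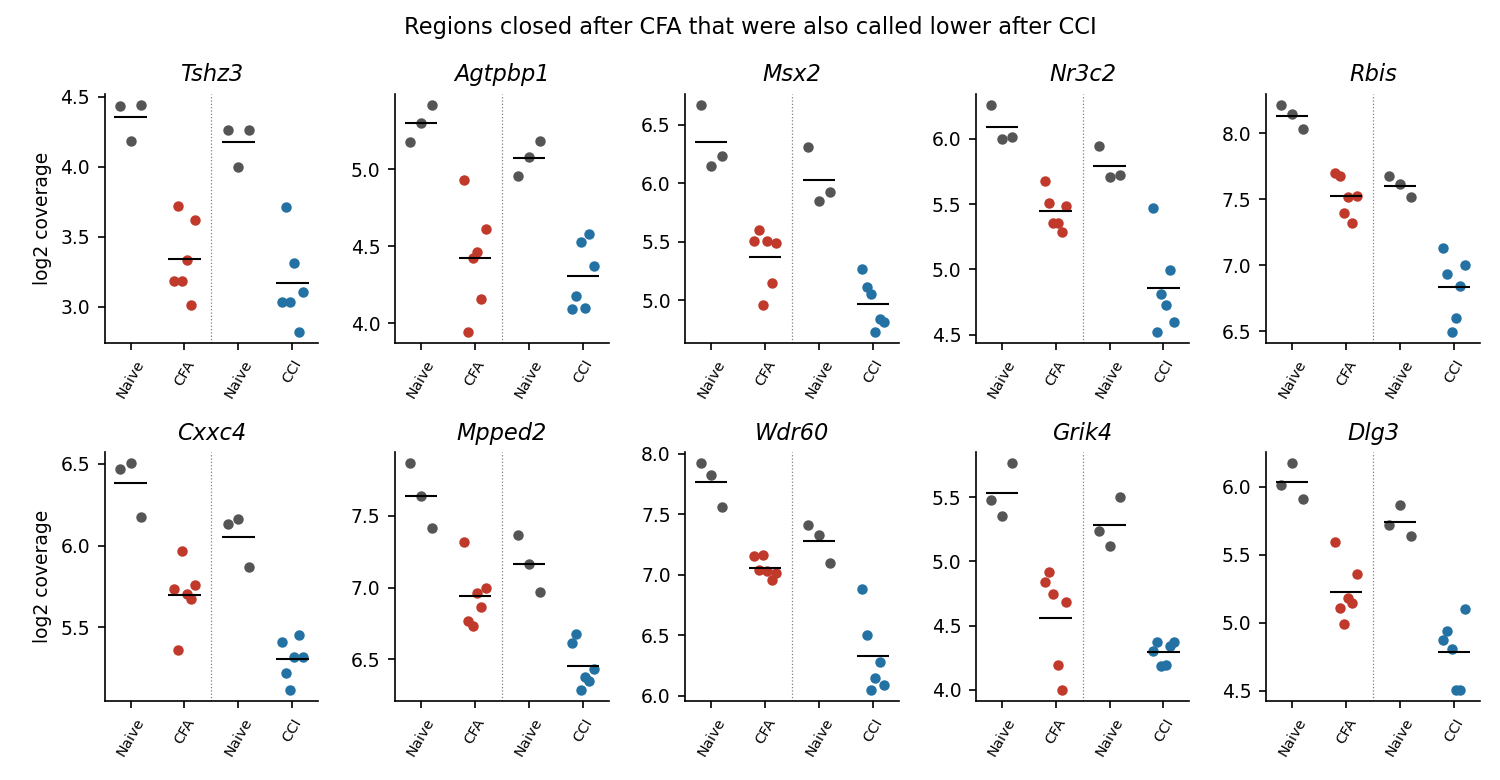
The log2 normalized coverage (vertical axis) of each of the 10 closed regions that were also called lower after CCI, with 1 point per library and a line at the group mean, in the CFA table (left of the dotted line) and the CCI table (right). In all 10 regions every CFA and every CCI point lies below the naïve points of its own table, as for Wdr60, where the CFA libraries reach 7.16 and the naïve libraries start at 7.56.

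Over all 316 closed regions the log2 fold change after CFA ranged from -2.41 to -0.45, with a median of -0.68, which leaves 62.3% of the naïve coverage. The loss was of moderate size at most of them, since 287 fell by between 0.5 and 1 on the log2 scale, 19 by more than 1 and 10 by less than 0.5. The median standard error of a change was 0.13. In 315 of the 316 regions all CFA libraries lay below all naïve libraries, which was the case in 5.65% of all regions. The rule selects for this, so the number is a description of the members and not a result. The Benjamini-Hochberg adjusted p by limma, taken over all regions, was between 0.0858 and 0.0886 for every member, so none passed 0.05. Around the threshold the 3 members just inside, at chr20:31723428-31724089, chr1:15374314-15375068 and chr6:87044088-87044352, had changes of -0.58, -0.50 and -0.77. The 3 lower regions just outside, at chr20:33358747-33359787, chr8:103337014-103338357 and chr3:29402620-29403420, had changes of -0.65, -0.85 and -0.60.

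The values of single CFA libraries chose the members, so their low level here is a description. For each library the deviation from the naïve mean was taken in every closed region, and its median was -0.57 in CFA a, -0.69 in CFA b, and -0.64, -0.66, -0.76 and -0.68 in CFA replicates 3 to 6. All 316 regions were below the naïve mean in each of the 6 CFA libraries. CFA replicate 5 was the lowest CFA library in 95 regions and CFA a the highest in 110, so these libraries mark the ends of the range. The naïve libraries differed as well, with medians of 0.07, 0.02 and -0.10. Naïve replicate 3 was the lowest naïve library in 197 closed regions and naïve replicate 1 the highest in 166. Over all regions the median deviation of every library in the CFA table lay between 0.002 and 0.02.

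**Figure D2:**
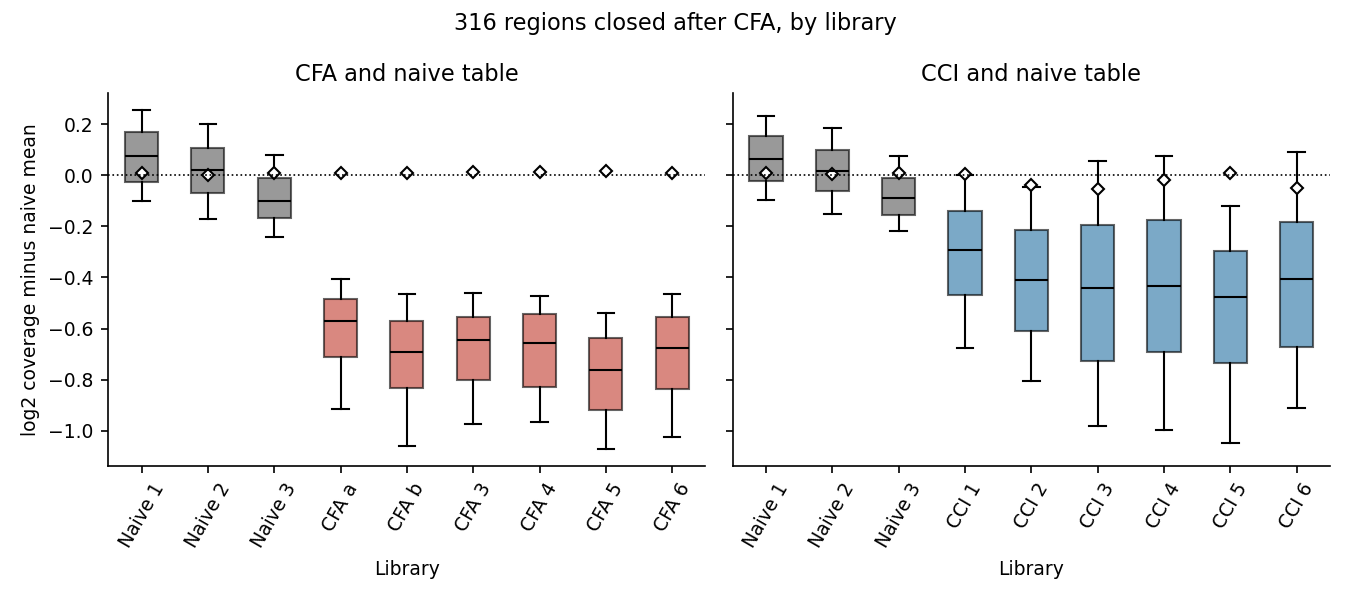
The deviation of log2 coverage from the naïve mean of the same table (vertical axis) over the 316 closed regions, for each library; boxes span the middle 50% with a line at the median, whiskers run from the 10th to the 90th percentile, and diamonds give the median over all 56810 regions. All CFA medians lie between -0.76 and -0.57 and all CCI medians between -0.48 and -0.29, while the naïve medians lie between -0.10 and 0.07 and the diamonds between -0.06 and 0.02.

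How far the membership rests on single libraries was examined by repeating the fit with each of the 9 libraries left out. Only 36 closed regions kept p below 0.001 in all 9 fits, 15 kept it in none and 161 in at most 3. Without naïve replicate 1, 69 members were kept, 86 without naïve replicate 2 and 144 without naïve replicate 3. When a CFA library was left out, 154 to 208 were kept. Leaving out 1 of 3 naïve libraries enlarges the standard error more than leaving out 1 of 6 CFA libraries. These counts therefore cannot be compared between naïve and CFA libraries. Within the naïve group, fewer members were kept without replicate 1 or 2 than without replicate 3. The median change of the members was between -0.73 and -0.62 in these fits. Of the 10 regions with a named gene, those of Wdr60 and Tshz3 kept p below 0.001 in all 9 fits, those of Msx2 and Dlg3 in 8 and that of Nr3c2 in 7. The Rbis region kept it in 4, those of Cxxc4 and Grik4 in 3, that of Mpped2 in 2 and that of Agtpbp1 in 1. The 5 regions with the smallest p kept it in all 9 fits. At chr5:74517155-74518110 the CFA values were 5.73 to 5.88 with a median of 5.81, against 6.92, 6.77 and 6.47 in the naïve libraries, a change of -0.91. At chr17:45187878-45188934 they were 6.55 to 6.73 against 7.30, 7.51 and 7.33, a change of -0.74. The other three, at chr3:47517983-47518723, chr8:96409418-96410254 and chr9:110329849-110330732, changed by -0.76, -0.86 and -0.88.

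In the 5 largest falls CFA replicate 3 was the highest CFA library. At chr12:5421308-5422533, where the fall was largest, the naïve values were 6.89, 7.92 and 7.09. CFA replicate 3 had 6.27 there and the other CFA libraries 4.07 to 4.79, for a change of -2.41 (SE 0.40), or -2.68 without CFA replicate 3. At chr6:31063185-31063966 it had 6.36, where the median of the CFA libraries was 4.69. The same held at chr17:89653728-89655260, with 6.31 against a CFA median of 4.78, at chr5:77686676-77687059, with 5.15 against 3.74, and at chr1:11929669-11930797, with 9.37 against 8.09. The changes in these 4 regions were -1.75, -1.70, -1.68 and -1.65, and without CFA replicate 3 they were -2.01, -1.95, -1.94 and -1.87. The region on chromosome 6 also had the widest spread among CFA libraries of all members, with an SD of 0.79. Most members had a narrow spread, with a median SD of 0.16 among the CFA libraries and 6 regions above 0.5. The standard error is part of the p that chose them, so this too describes the selection.

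**Figure D3:**
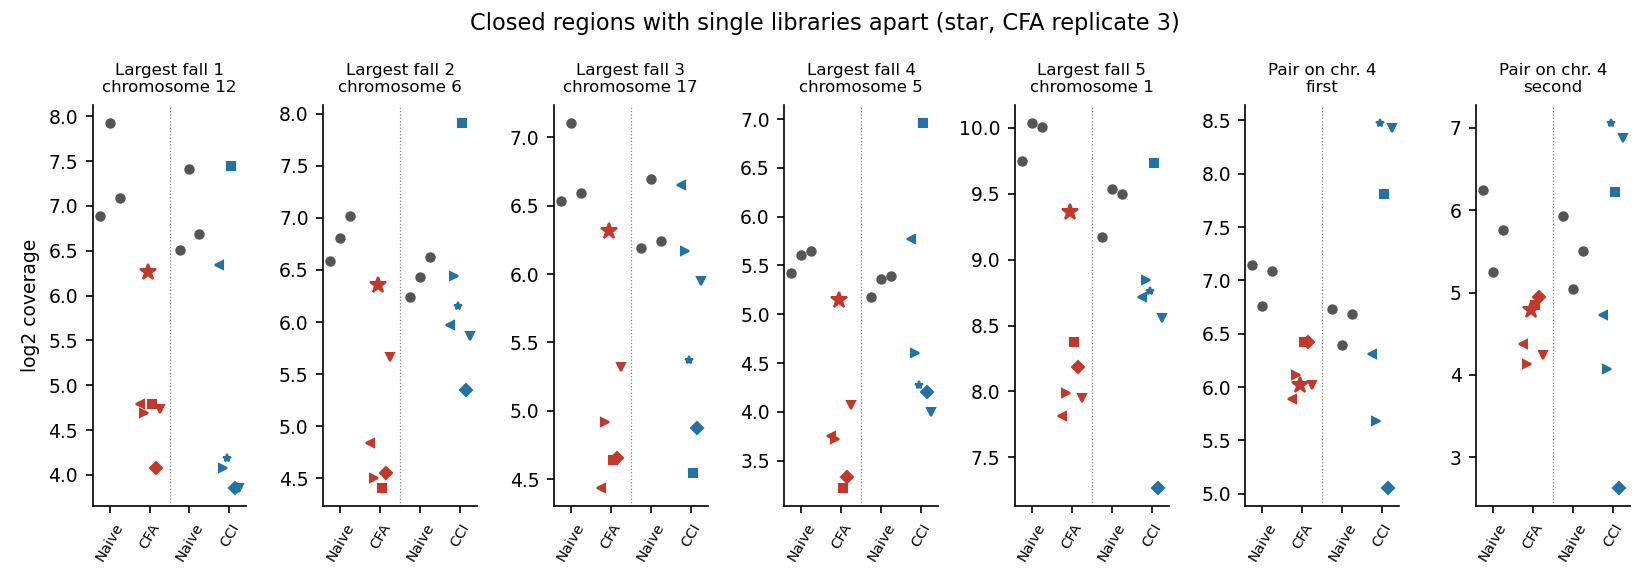
The log2 coverage (vertical axis) by library for the 5 closed regions with the largest falls, numbered by size, and for the 2 members of a pair on chromosome 4, in the CFA table (left of the dotted line) and the CCI table (right); circles are naïve libraries, the large star is CFA replicate 3, and the other marks stand for the same library in every panel of a group. In the first panel CFA replicate 3 lies at 6.27 and the other CFA libraries at 4.79 or lower, and in the panels of the pair CCI replicates 3, 4 and 6 lie above all naïve libraries.

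In the CCI table the closed regions were lower as well, by less and with a wider spread. The CFA values chose the members, which favours large CFA falls with a narrow CFA spread, so both differences are descriptions. Regions closed after CCI, chosen by the CCI values, had a median change of -0.91 after CCI and -0.49 after CFA. Over all regions the median SD was also wider among CCI libraries (0.32) than among CFA libraries (0.24). Their median change after CCI was -0.42, or 74.8% of the naïve coverage, with the middle 50% between -0.57 and -0.27, while the median over all regions was -0.04. Regions at a similar naïve level, within the middle 50% of that of the members, had a median CCI change of -0.09. The medians of the 6 CCI libraries lay between -0.48 and -0.29, below those of the naïve libraries, which lay between -0.09 and 0.06. A lower CCI mean was found in 309 of the 316 members, and in 55.5% of all regions. With p below 0.05 by limma and a lower mean there were 164 members (51.9%), next to 7.45% of all regions. No member had p below 0.05 by limma and a higher mean. For this count no share over all regions was taken, so it cannot be weighed and is no result. At p below 0.001 there were 10 members (3.16%), next to 0.160% of all regions. All CCI libraries lay below all naïve libraries in 144 members, and in 5.26% of all regions. Both comparisons use the same 3 naïve libraries, so a region in which these happen to be high is lower in both, and the CCI values are no independent test of the closing. The CCI fall was larger than the CFA fall in 29 members, a count that the choice by CFA values keeps low.

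Sequencing differed among the CCI libraries, because the labels give 2 runs for all naïve and CFA libraries and for CCI replicates 1 and 2 but 1 run for CCI replicates 3 to 6. The medians of CCI replicates 1 and 2 over the closed regions were -0.29 and -0.41, and those of replicates 3 to 6 were -0.44, -0.43, -0.48 and -0.40. With replicates 1 and 2 alone against the naïve libraries the median change was -0.35. In that fit 1 member was called lower, among 38 regions called lower in all.

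The members that fell most after CCI were chr12:5421308-5422533, at -1.91 (SE 0.72), chr6:137578184-137578598, at -1.14 (SE 0.28), and chr2:127350176-127350325, at -1.10 (SE 0.32). The first was split among the libraries. CCI replicates 1 and 4 had 6.35 and 7.44, near the naïve values of 6.51, 7.41 and 6.68, and the other CCI libraries had 3.85 to 4.18. The members with the highest CCI change were chr4:29653198-29654252, at 0.36 (SE 0.68), chr6:75810314-75810543, at 0.15 (SE 0.29), and chr2:50099579-50100813, at 0.09 (SE 0.22), none of which exceeds its standard error.

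The first of these forms a pair with the closed region at chr4:29655074-29655485, separated by 0.822 kb. Its naïve values in that table were 6.73, 6.39 and 6.68. CCI replicates 3, 4 and 6 had 8.47, 7.81 and 8.42, above all naïve libraries, and CCI replicates 1, 2 and 5 had 6.31, 5.68 and 5.05, below them. The second region of the pair repeated this order, with 7.06, 6.22 and 6.87 in replicates 3, 4 and 6 and 4.73, 4.08 and 2.62 in replicates 1, 2 and 5. All CFA libraries of both regions were below the naïve libraries, with changes of -0.85 and -1.20.

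Over the members, the SD among CCI libraries had a median of 0.28 and exceeded 0.5 in 38 of the 316, a smaller share than the 15.2% found over all regions, whose median was 0.32. Among the 8 members with the widest CCI spread, which were chosen after their values were seen, 4 on different chromosomes shared an order of libraries. In these, at chr12:5421308-5422533, chr7:10267221-10267904, chr5:77686676-77687059 and chr6:17359882-17361160, CCI replicate 4 was the highest CCI library, CCI replicate 1 the next and CFA replicate 3 the highest CFA library. This order occurred in 5 of all 316 members.

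The closed regions were wide. The median width was 880.5 bp, with the middle 50% between 582.5 and 1179.5 bp, while the median over all regions was 549 bp. The opened regions had a median of 534 bp and the regions closed after CCI 422 bp. In the widest 10% of all regions, from 1161 bp upwards, 82 regions (1.44%) were closed and 11 (0.194%) opened after CFA, whereas in the narrowest 10% there were 18 closed (0.317%) and 39 opened (0.686%). Regions of at least 1500 bp made up 8.23% of the closed and 2.85% of all regions. The widest members were chr2:148606807-148609725 with 2918 bp, chr1:12822227-12824737 with 2510 bp and chr5:2631658-2633796 with 2138 bp, and they changed by -0.55, -0.57 and -0.60. The narrowest were chr10:59726038-59726187 and chr2:127350176-127350325 with 149 bp each and chr13:93284234-93284396 with 162 bp, which changed by -0.77, -1.16 and -0.98. How far width marks the members depended on the test. The median width was 827.5 bp at p below 0.01 and 1001 bp for the members that also passed with an intensity trend in the prior variance. Of the regions called lower, 59.8% belonged to the widest 30% of all regions, compared with 38.8% without naïve replicate 1 and 86.1% with that trend.

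They also had higher coverage in naïve rats than most regions, although the naïve values were used to choose them and this is a description. The naïve mean of the members had a median of 7.03 on the log2 scale, between 4.07 and 10.3, compared with 5.70 over all regions. Width and naïve level went together, with a Spearman rho of 0.83 across all 56810 regions, which are not independent of each other. Whether the members were more accessible than regions of equal width was not tested. The members with the highest naïve mean were chr9:60021337-60022886, with 10.43, 10.30 and 10.12 in the naïve libraries and 9.66 to 9.83 in the CFA libraries, followed by the members at chr2:148606807-148609725 and chr1:12822227-12824737 named above. The opened regions were frequent at both low and high naïve level. To the lowest 10% of all regions by naïve level belonged 82 of the opened and 10 of the closed regions. To the highest 30% belonged 149 of the opened (46.4%) and 195 of the closed regions (61.7%).

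Most closed regions lay where accessible regions are sparse. The number of other accessible regions within 500 kb on either side had a median of 18 for the closed regions, 31 for all regions, 38 for the opened regions and 31 for the regions closed after CCI. When all regions were ordered by this number, the sparsest 30% held 203 of the 316 closed regions (64.2%), 16.5% of the opened and 29.7% of those closed after CCI. From the sparsest to the densest 10% of regions the share that closed fell from 1.20% to 0.0880%, with a highest share of 1.51% in the next to sparsest 10%. The share was between 54.7% and 71.0% when single libraries were left out, and 59.5% or 60.4% when regions were counted within 100 kb or 2 Mb. Within their own chromosome, 247 members (78.2%) had fewer neighbours than the median region, and 48.8% of all regions had. Width and the number of neighbours were nearly unrelated over all regions, with a Spearman rho of 0.09. Regions both wider than the median and sparser than the median closed most often, at 1.52% (206 of 13568). Wider regions in denser surroundings closed at 0.263%, narrower regions in sparser surroundings at 0.362% and narrower regions in denser surroundings at 0.116%.

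**Figure D4:**
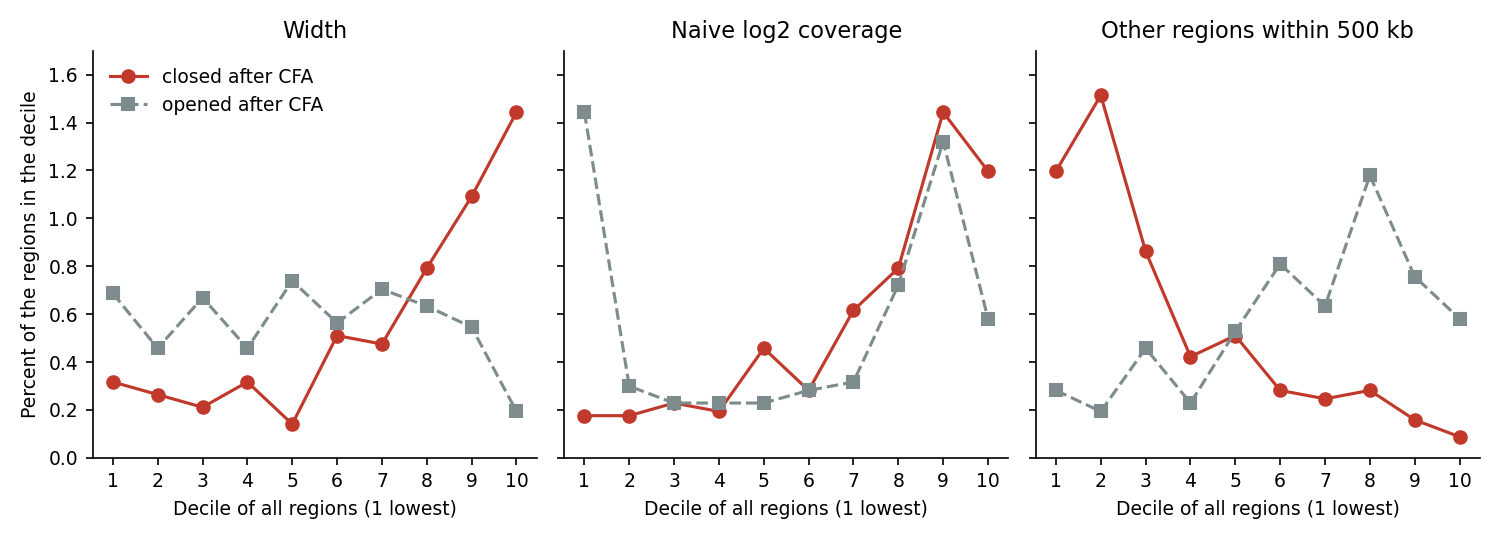
The percent of regions that closed (circles) or opened (squares) after CFA (vertical axis) in each decile of all 56810 regions (horizontal axis, 1 the lowest) by width, by naïve log2 coverage and by the number of other regions within 500 kb. The closed share rises with width to 1.44% in the widest decile and falls with the number of neighbours from 1.51% in the second decile to 0.0880% in the densest.

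A small shift of the same kind was seen over all regions, members included, and its part in the closing was not tested. Over all regions of a density decile the median change after CFA went from -0.11 in the sparsest to 0.06 in the densest 10%. After CCI it was 0.04 in the sparsest decile, -0.08 in decile 9 and -0.02 in the densest. The mean log2 coverage of the sparsest 30% minus that of the densest 30% was -0.72, -0.61 and -0.74 in the naïve libraries and ranged from -0.89 to -0.75 with a median of -0.85 in the CFA libraries. The CFA libraries thus all had relatively less signal in sparse surroundings than the naïve libraries, CFA replicate 6 by the least. In the CCI table the naïve libraries had -0.66, -0.56 and -0.68 and the CCI libraries -0.63 to -0.56, so the groups overlapped.

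Chromosomes differed in their share of closed regions. It was highest on chromosome 4, with 34 of 3341 regions (1.02%), chromosome 14, with 20 of 2145 (0.932%), and chromosome 2, with 42 of 4772 (0.880%). It was lowest on chromosome 12, with 2 of 1538 (0.130%), and chromosome 10, with 7 of 3421 (0.205%), and no region of the Y chromosome, which holds 11, was closed. The opened regions ran the other way on these chromosomes, with 1.69% on chromosome 12, 1.02% on chromosome 10 and 0.210% on chromosome 4. Other chromosomes departed from this. Chromosome 13 had the fewest regions per Mb of the autosomes (15.9) but a closed share of only 0.276%. Chromosome 5 had 0.826% closed and 0.689% opened, both above the shares over all regions. Across the 21 chromosomes other than Y, the closed share and the number of regions per Mb had a Pearson r of -0.50 and a Spearman rho of -0.54, and the opened share an r of 0.63 and a rho of 0.60. These describe 21 values from the same libraries.

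**Figure D5:**
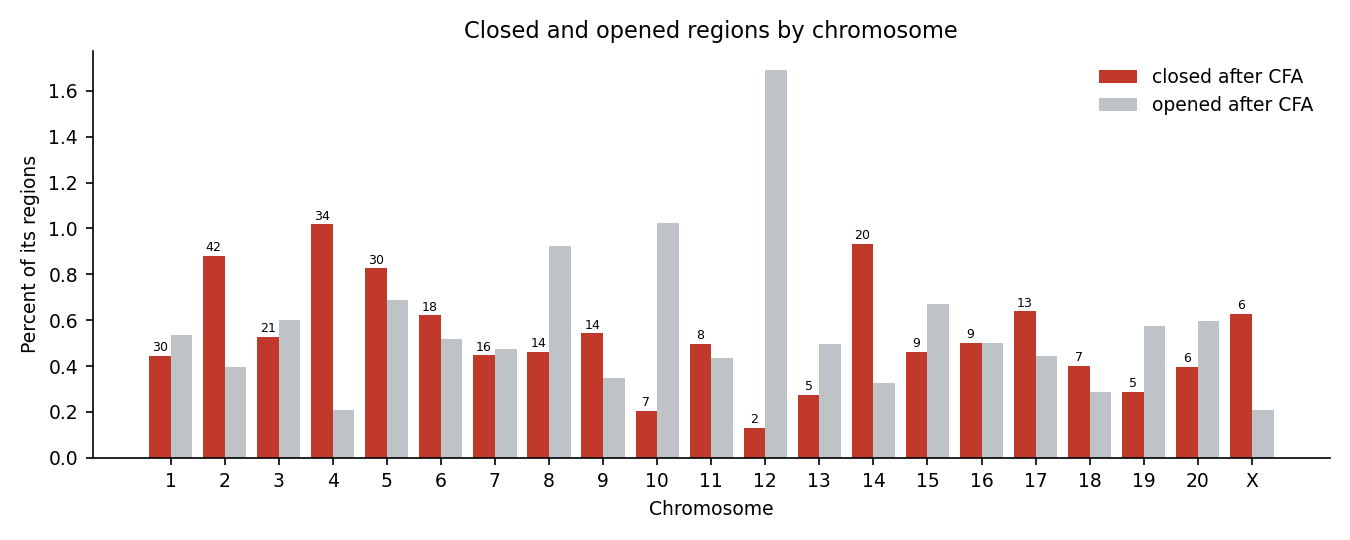
The percent of the accessible regions of each chromosome other than Y (horizontal axis) that closed (dark bars, with the number of regions) or opened (light bars) after CFA. Chromosomes 4, 14 and 2 have the highest closed shares, from 0.880% to 1.02%, and chromosome 12 the lowest at 0.130% and the highest opened share at 1.69%.

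At shorter range the closed regions were compared with the opened ones by the gap to the nearest region of the same set. Of the 316, 22 had another closed region within 100 kb, 12 within 10 kb and 99 within 1 Mb, and the median gap to the nearest other closed region was 2296 kb. Of the 321 opened regions, 67 had another opened region within 100 kb, 26 within 10 kb and 162 within 1 Mb, with a median gap of 941 kb. The difference between the sets was not tested. The nearest accessible region of any kind was 17.1 kb away in the median for closed regions and 8.50 kb for all regions. At 100 kb the members formed 11 pairs and no larger group. The closest pairs were chr5:8665016-8665898 with chr5:8666182-8666795, 0.284 kb apart, chr19:34760039-34760205 with chr19:34761002-34761944, 0.797 kb apart, and the pair on chromosome 4. The pair on chromosome 19 includes the Nr3c2 region, and its second member, with naïve values of 8.18, 8.18 and 8.02 and CFA values of 7.34 to 7.64, changed by -0.61. The pair on chromosome 5 changed by -0.67 and -0.72. With gaps of up to 1 Mb, the largest group was 5 members within 507 kb on chromosome 5, among 16 accessible regions there, which include this pair.

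Accessible regions next to a closed one shifted in the same direction without being members. The 73 other regions within 5 kb of a closed region had a median change of -0.30 after CFA. Of them 87.7% were lower, next to 62.9% at 5 to 50 kb and 49.2% of all regions. At 5 to 50 kb the median was -0.10, at 50 to 500 kb -0.04, at 500 to 5000 kb 0.002 and beyond that 0.03. After CCI the same 73 regions had a median change of -0.19, and the regions at greater distances between -0.05 and -0.03. The naïve libraries are the same in both comparisons, so the CCI values are no independent test here either.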

How the data were processed

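ATAC-seq libraries of rat DRGs were analysed, 3 naïve, 6 CFA and 6 CCI. Per the methods, the authors trimmed the reads, aligned them with Bowtie2 to rn6, dropped duplicates and reads with a mapping quality under 10, shifted reads for the transposase offset, sampled all libraries down to the same number of insertion sites, used MACS2 for the peaks of each sample and counted the reads of every consensus region. The authors deposited log2 normalized coverage per region in 2 tables, and how it was normalized is not given in the sources used here. The columns of a table share nearly 1 distribution, so changes are relative to the typical region. The normalized values do not show the reads behind a region, so no counting interval is given. Groups came from the sample labels. Among the CFA columns, 2 bear names that RNA-seq samples also have. They are called CFA a and CFA b and have no replicate number. Runs of 1 library form 1 column, and all columns of library values were used. The 2 RNA-seq libraries were not used here.

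All 56810 regions were fitted with limma 3.58.1 in R 4.3.3 (lmFit and eBayes with the default prior, two-sided), each pain model against naïve in its own table. With 1 rat per library, the replicates are rats. The SEs and p-values are the moderated ones of eBayes, in which the spread at a region is drawn towards that of all regions. The method was tested on simulated data. Width is end minus start, and neighbours were counted by region centres. Descriptions were made in Python 3.11.15 (scipy 1.17.1, pandas 2.3.3, numpy 2.4.6) and figures with matplotlib 3.10.9. The members, lists and motifs were chosen with earlier results of these data known. Named regions are the 10 also called lower after CCI, the 5 with the smallest p and the 5 with the largest fall, the 3 highest in naïve mean, widest, narrowest, just inside and just outside the threshold, lowest and highest in CCI change, the member with the widest CFA spread, and the groups within 100 kb, of which, all being pairs, the 3 with the shortest gaps are given. Other priors, weights, normalizations, filters and thresholds, a replicate block and leaving out single libraries were tried. Naïve and CCI libraries share numbers, but the deviations of same-numbered libraries correlated at -0.06, 0.07 and -0.03, so the numbers were not taken to pair them. No rn6 genome or annotation was used, so nearest genes come from the study's table, and promoter windows come from RefSeq (GRCr8). Tissue markers were not analysed here.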

Additional observations from a re-analysis of the deposited data

Results flagged for a closer look

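A sample far from the others was looked for among the 6 CFA and the 6 CCI libraries of each named closed region, by the gap to the nearest library as a share of the whole range (Dixon's test at 0.625 for 6 samples). Chance flags about 1 in 20 groups. Over all 316 closed regions 23 CFA groups (7.28%) and 21 CCI groups (6.65%) had such a library.

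Among the named regions, CFA replicate 3 stood above the other CFA libraries at chr12:5421308-5422533, with 6.27 and a gap of 0.672 of the range. It also did at chr1:11929669-11930797, with 9.37 and 0.639, and at chr6:137578184-137578598, with 5.39 and 0.727. CFA replicate 4 stood above the others at chr6:75810314-75810543, with 3.48 and 0.789. In the CCI table, CCI replicate 5 stood below the others at chr9:110329849-110330732, with 4.95 and 0.695. With single libraries left out of the CFA comparison the sign did not change at these regions. There p stayed below 0.001 by limma in 9 of 9 fits at the chromosome 12 and chromosome 9 regions, in 7 at those on chromosome 1 and at chr6:75810314-75810543, and in 1 at chr6:137578184-137578598. The CFA fits do not bear on CCI replicate 5.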

How the results depend on the processing

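The adjusted p of every member exceeded 0.05, so the set rests on an unadjusted threshold with 3 naïve libraries. The authors state a common depth, but the average number of insertion sites they give lies below it, so an equal depth is not certain. What read counts limit in a single region cannot be read from normalized values. The number of closed regions ranged from 103 to 311 when single libraries were left out, and was 1162 with an intensity trend, 1942 at p below 0.01 and 25 at p below 0.0001. The trend kept 247 members. A robust prior, quality weights, cyclic loess, leaving out the lowest 25% of regions by mean and a fall of more than 0.5 gave 264 to 412. The median CFA change of the members was between -0.73 and -0.62 and their median CCI change between -0.47 and -0.39 without single libraries, and -0.35 for the CCI change with libraries sequenced in 2 runs only, a restriction chosen after seeing the data, as were the shares by width and surroundings.

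The number of members called lower after CCI was 3 to 11 without single libraries, 3 without naïve replicate 1, 3 without naïve replicate 2, 4 without naïve replicate 3 and 6 without CCI replicate 4. It was 25 with the trend, 22 with quality weights and 64 at p below 0.01. It was 1 with libraries of 2 runs only and 0 with the replicate number as a block. Over all regions 91 were called lower in the main fit, and 239, 242, 1071, 38 and 14 in these settings, in this order. Without naïve replicates 1, 2 and 3 and CCI replicate 4 the totals were 14, 38, 22 and 50. The calls over all regions moved too, so these counts do not describe the members alone. For the CFA comparison no paired analysis was possible because 2 CFA columns carry no replicate number that could be tied to a library, although the labels number the libraries of both groups. The number of members near another was 12 at 10 kb and 99 at 1 Mb. The median width was 827.5 bp for members at p below 0.01 and 1001 bp for members that also passed with the trend. The share in the widest 30% was 38.8% to 57.6% without single libraries, 86.1% with the trend and 70.6% without the lowest 25%, and the share in the sparsest 30% was 54.7% to 71.0% and 57.9% with the trend. The cause of these shifts was not tested. Of 380 refitted changes of the 38 named closed regions, 230 stayed below p = 0.001, 150 did not and 0 changed sign.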
